A study of Mus musculus with 8 samples.

Results

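The 7 solute carrier families that move amino acids and related small molecules across membranes, Slc1, Slc3, Slc6, Slc7, Slc36, Slc38 and Slc43, were followed while mouse germ cells became pluripotent cells in culture. The rule for members used the gene symbol and no measured difference, though it was set with earlier results of these data known. Members also needed a value on both arrays of at least 1 group. Of 59 matching genes, each read by 1 probe, 58 passed, out of 15933 genes with a named probe that met the same condition. The gene left out was Slc6a19os. Another member by name, Slc7a6os, is a gene on the opposite strand and no carrier, which leaves 57 carriers: 7 of Slc1, 2 of Slc3, 18 of Slc6, 14 of Slc7, 4 of Slc36, 9 of Slc38 and 3 of Slc43.

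The study placed RNA of Nanog-GFP mouse cells, whose green reporter reads a pluripotency gene, on 8 one-colour Cy5 arrays. The 4 groups of 2 arrays were primordial germ cells of embryonic stage E11.5 (named E11.5 PGC), the culture on day 3 (Day3) and on day 6 (Day6), and embryonic germ (EG) cells, the stable pluripotent cells derived from germ cells. According to the labels the medium was Knockout DMEM with the growth factors LIF and bFGF and with 2-ME. It also held glutamine at 2 mM, nonessential amino acids at 1 mM and a serum replacement (KSR) at 15%. Added to it were PD325901 at 1 µM, which blocks MEK, CHIR99021 at 3 µM, which blocks GSK3, and A83-01 at 250 nM, which blocks the receptors of Activin and Nodal. The uncultured E11.5 PGC samples carry this protocol text too, but the inhibitors stand in the names of the other 3 groups only. The series describes cell sorting of candidate pluripotent cells during culture. Whether the arrays of a group come from separate animals, cultures or lines is not given in the sources used here, so p-values measure the spread between these samples, which may be technical.

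Amino acid carriers differ in what they carry and in what drives them. Slc1 and Slc6 proteins use the sodium gradient to pull substrates in, Slc38 proteins do the same mainly for glutamine and small neutral amino acids, and many Slc7 proteins exchange amino acids across the membrane and need a heavy chain of the Slc3 family to reach the surface. Some Slc36 proteins couple to protons, and the family is found at the surface and on lysosomes. Slc43 holds facilitative carriers. Pluripotent cells grow fast and are known to depend on glutamine and other amino acids from the medium, and amino acids signal growth through the kinase mTORC1.

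Values are spot intensities scaled by the authors to a median near 20 on each array. A probe is called near the floor in a group when both arrays lay under 4.24, and the intensities of different probes are not set against each other as results. A change is a difference of mean log2 intensities with its standard error (SE), always over 2 arrays per group, and a call is an adjusted p under 0.05 in limma with Benjamini-Hochberg adjustment over all probes tested. By their names, the EG arrays and replicate 1 of each other group belong to an array series A, and replicate 2 of those other groups to an array series B. Calls without the block are those of the fit on all 8 arrays, and calls with the block those of the same fit with this series as a term. Calls under other settings are named as such. Leaving out 1 array of a compared group leaves that group a single array. Without the block, fewer of all probes were then called in each comparison that had calls. Lost calls of single genes are to be read beside this. EG has no array in series B, so its blocked values take the series difference to be the same in every group. The 3 comparisons with E11.5 PGC share the same E11.5 PGC arrays and are not independent of each other. All arrays read bulk RNA, in which fewer cells of a type and less RNA per cell cannot be told apart.

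The labelled identities were checked against markers. The summed intensity of 6 pluripotency markers was 3150 and 3190 on the E11.5 PGC arrays, 7480 and 7880 on those of Day3, 13500 and 16400 on those of Day6, and 13700 and 19000 on those of EG. The 5 germ cell markers together had 15700 and 9550 on the E11.5 PGC arrays, 7340 and 6480 on the Day3 arrays, 1010 and 3200 on the Day6 arrays, and 1240 and 941 on the EG arrays. Fibroblast markers, 7 of 7 measured, stood apart on replicate 1 of Day6, where they summed to 2620 (replicate 2: 103), against 62.3 and 108 in E11.5 PGC. They summed to 256 and 407 at Day3 and 1000 and 316 in EG. S100a4 (1340) and Thy1 (747) made up most of the sum on replicate 1 of Day6, and S100a4 (808) that on replicate 1 of EG. Dcn and Col3a1 were highest on replicate 2 of Day3, at 173 and 137, and did not exceed 16.3 and 13.5 in EG. Of 4 endothelial markers, 3 were measured and summed to 84.9 and 166 at Day6, 73.9 and 90.9 in EG, and 314 and 476 in E11.5 PGC. Most of each sum was Pecam1 (184 and 377 in E11.5 PGC). Cldn5 had 105 and 80.7 in E11.5 PGC and at most 14.1 elsewhere, while Kdr lay between 12.7 and 23.7 on every array. Tyrobp and Ptprc, the 2 of 5 blood markers that were measured, summed to between 13.4 and 16.8 on the cultured and EG arrays, and to 48.1 and 40.4 in E11.5 PGC. Tyrobp alone had 43.3 and 34.6 in E11.5 PGC, and Ptprc 4.87 and 5.74. The 6 gonadal somatic markers summed to between 24.9 and 53.6 on every array. Their part in the results on carriers was not tested.

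Which carriers were detected was similar in number from group to group. On both arrays, 34 of the 57 carriers lay above the floor value in E11.5 PGC, 29 at Day3, 32 at Day6 and 32 in EG, 27 did so in all 4 groups, and 19 in none. Families differed: all 9 Slc38 carriers, the sodium-coupled neutral amino acid carriers, and both Slc3 heavy chains lay above it in every group. Of the 18 Slc6 carriers 9 did so in no group, and of the 14 Slc7 carriers 6. Among the 39 carriers measured on both arrays of every group and not near the floor throughout, the highest mean stood in E11.5 PGC for 12, at Day3 for 8, at Day6 for 8 and in EG for 11.

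**Figure D1:**
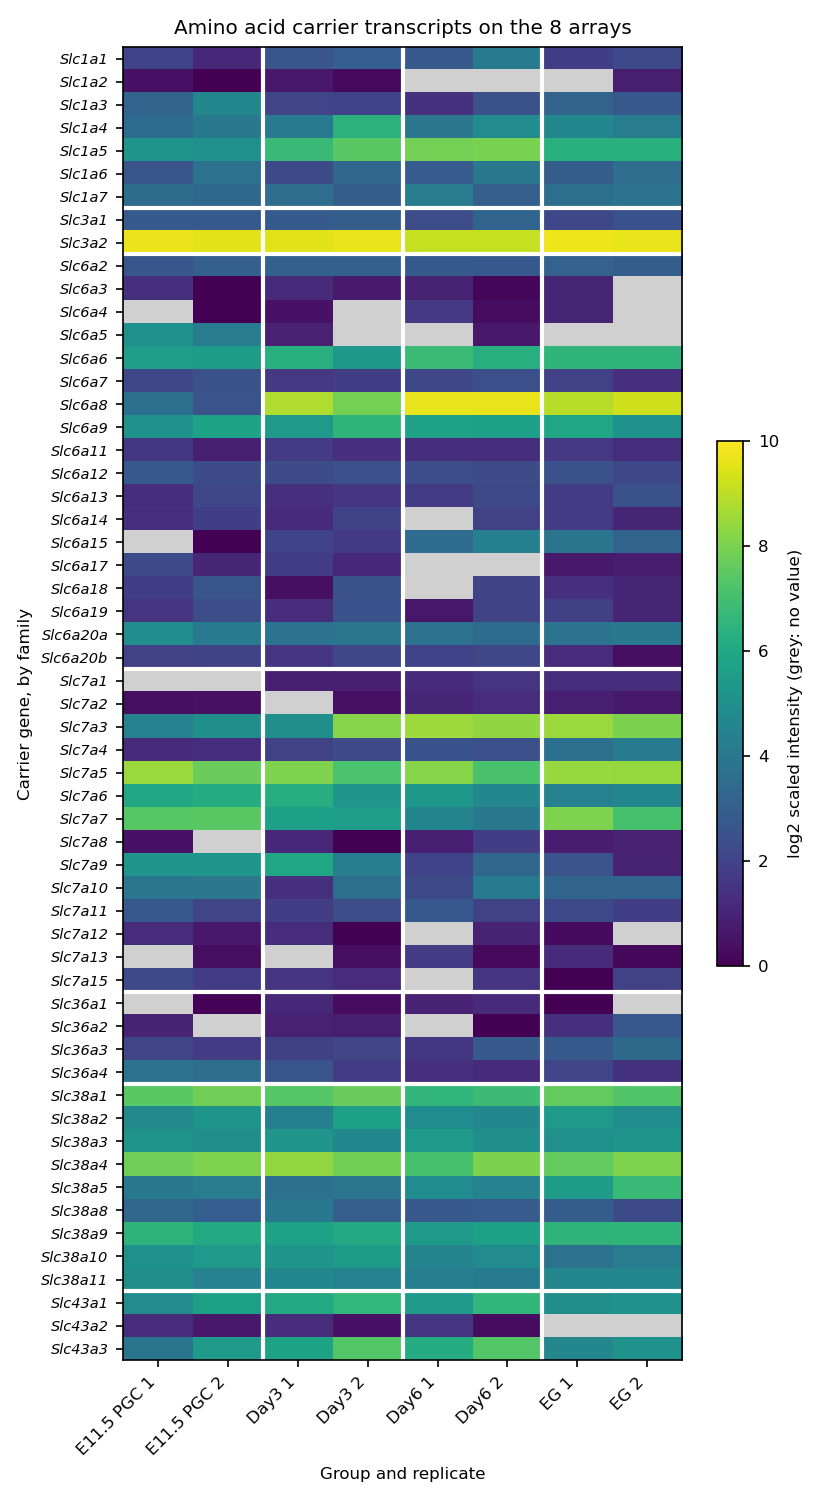
Log2 intensity of the 57 carriers (rows, grouped by family) on the 8 arrays (columns, in the order E11.5 PGC, Day3, Day6, EG), with grey cells for missing values. Colours can be compared along a row but not between rows, which are different probes; in every group between 29 and 34 carriers lay above the floor value on both arrays.

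At Day3, 2 of the 49 members tested were called against E11.5 PGC (4.08%), both higher, where 2.08% of all probes were called, 1.33% higher and 0.754% lower. With the series as a block 7 were called (14.3%), 4 higher and 3 lower, beside 8.34% of all probes (4.34% higher, 4.0% lower). At Day6, 6 of 44 members were called (13.6%), 4 higher and 2 lower, beside 8.61% of all probes (4.34% higher, 4.28% lower). With the block 12 were called (27.3%), 7 higher and 5 lower, beside 23.8% (9.5% higher, 14.3% lower). Without replicate 1 of Day6, the array with the high fibroblast signal, Day6 is a single array, and fewer of all probes were called. In that fit the calls of Slc1a5, Slc6a8, Slc7a7 and Slc36a4 were kept. Those of Slc7a3 and Slc7a4 were lost, with changes of 3.69 and 1.18. In EG, 8 of 46 members were called (17.4%), 5 higher and 3 lower, beside 11.2% of all probes (5.57% higher, 5.61% lower). With the block 11 were called (23.9%), 6 higher and 5 lower, beside 23.6% (9.24% higher, 14.4% lower). The median change of the tested carriers was -0.10 at Day3, -0.03 at Day6 and 0.04 in EG, against -0.13, -0.16 and -0.16 over all probes, so the tested carriers lay close to the whole array. The calls over the 5 comparisons belonged to 9 carriers without the block and to 17 with or without it, and the other 40 carriers had none in these 2 fits. The share of all probes with a call in any of them was not computed, so these totals are not set against the whole array.

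**Figure D2:**
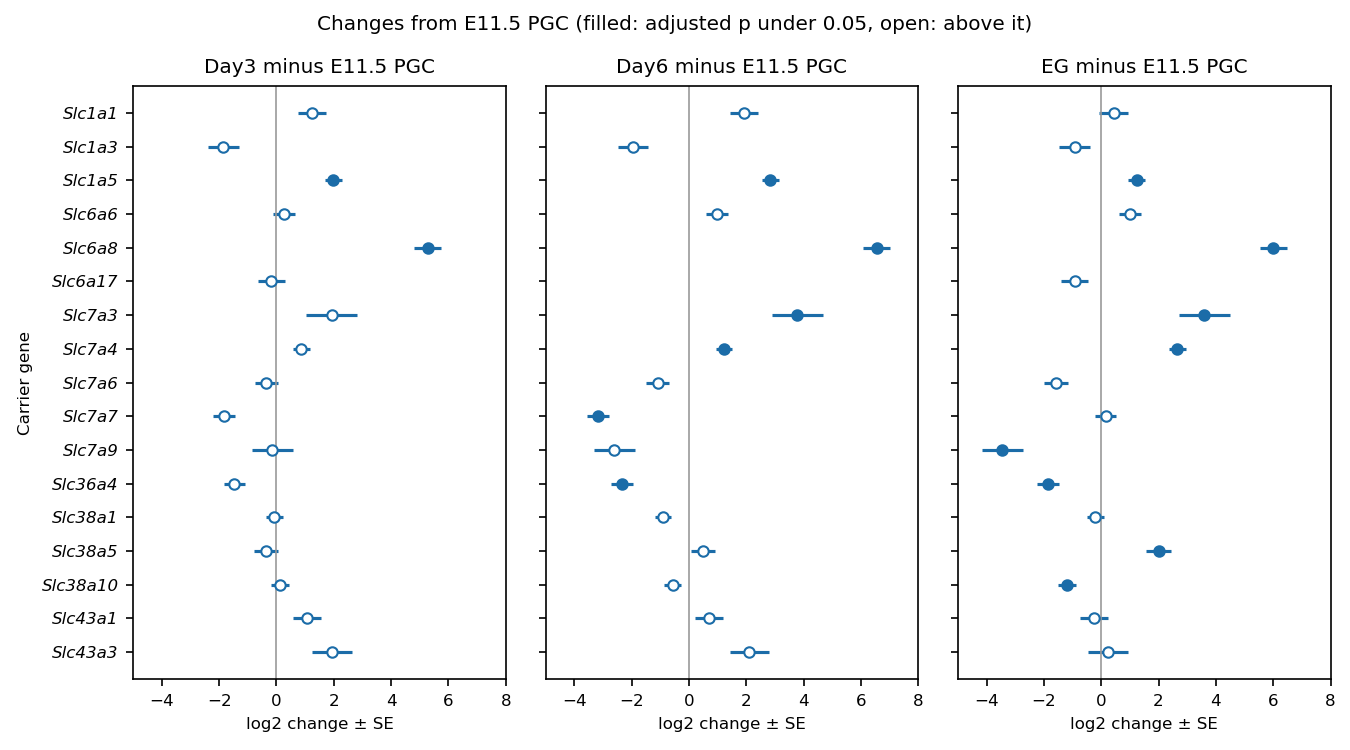
Log2 change against E11.5 PGC (points) with its SE (bars) at Day3, at Day6 and in EG, for the 17 carriers called in any comparison in either model; filled points were called without the block. Slc6a8 lies at 5.27, 6.55 and 6.01, and Slc7a7 at -1.82, -3.16 and 0.15.

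Slc6a8, which brings creatine into cells with sodium and chloride, was higher than in E11.5 PGC at Day3, at Day6 and in EG. Its intensity was 452 and 239 at Day3, against 12.5 and 5.84 in E11.5 PGC. The values were 785 and 818 at Day6, and 481 and 627 in EG. Each cultured and EG array lay far above both E11.5 PGC arrays. The changes were 5.27 ± 0.46 at Day3 (adjusted p = 0.00611, 38.5-fold), 6.55 ± 0.46 at Day6 (adjusted p = 0.00137, 93.8-fold) and 6.01 ± 0.46 in EG (adjusted p = 0.00149, 64.3-fold). Within series A and series B they were 5.17 and 5.36 at Day3, and 5.97 and 7.13 at Day6. In 8 fits that each left out 1 array, the Day6 and EG calls were kept every time. The Day3 call was lost without replicate 2 of E11.5 PGC, the dimmer of that group (4.72, adjusted p = 0.0656).

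No other Slc6 carrier was called in the fit on all 8 arrays without the block. Slc6a6, the taurine carrier, had intensities of 113 and 76.8 at Day6, and 94.2 and 93.0 in EG, against 47.5 and 46.1 in E11.5 PGC. Its arrays did not overlap between these groups, yet the change of 0.99 ± 0.38 at Day6 was called only with the block (adjusted p = 0.0349, against 0.162 without). In EG it was called with only the 4 arrays compared (1.00, adjusted p = 0.0435). Slc6a9, the glycine carrier GlyT1, spanned 33.8 to 93.8 over the 8 arrays with no call. Slc6a17, a vesicular carrier of neutral amino acids, was called lower in EG with the block only (-1.40, adjusted p = 0.0166, against -0.93 ± 0.47 and 0.269 without). Its values there were 1.61 and 1.74, against 4.82 and 2.10 in E11.5 PGC, all close to the floor.

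A pair of Slc6 carriers with missing cells could not be tested against E11.5 PGC with all 8 arrays, and were picked out after their values were seen. Slc6a5, the glycine carrier GlyT2 of inhibitory neurons, read 32.3 and 19.1 in E11.5 PGC. It had 1 value at Day3 (1.91), 1 at Day6 (1.59) and none in EG, so every later value lay below the floor value. With replicate 1 of Day6 left out, the difference at Day6 was -3.96, where Day6 is the single value of 1.59. Slc6a5 met the condition for members only through E11.5 PGC, the group where it was high, so no call is read from it. Slc6a15, a sodium-coupled carrier of branched-chain amino acids and proline, had a single E11.5 PGC value of 0.807. It read 4.02 and 3.29 at Day3, then 11.4 and 19.9 at Day6, and in EG 14.5 and 9.38. The Day6 arrays lay above the Day3 arrays, but the change of 2.05 ± 0.40 was not called (adjusted p = 0.162, and 0.0638 with the block). With replicate 1 of E11.5 PGC left out, the differences of Slc6a15 from the single E11.5 PGC value were 4.22 at Day6 and 3.85 in EG. A group of 1 array is assumed in these fits to vary like the others.

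Of the cationic amino acid carriers of the Slc7 family, Slc7a3 was called at Day6 and in EG. Slc7a3 takes up arginine and lysine, and its intensity was 372 and 325 at Day6, and 358 and 259 in EG, against 20.3 and 31.2 in E11.5 PGC. All 4 later arrays exceeded both E11.5 PGC arrays. It rose by 3.79 ± 0.90 at Day6 (adjusted p = 0.0467, 13.8-fold) and by 3.60 ± 0.90 in EG (adjusted p = 0.0472, 12.1-fold). The Day3 arrays disagreed, at 31.3 in series A and 289 in series B, so the within-series changes were 0.62 and 3.21 and the mean change of 1.92 ± 0.90 was not called (adjusted p = 0.406), except without replicate 1 of Day3 (3.52, 0.0432). With the block the adjusted p was 0.014 at Day6 and 0.0138 in EG. Both calls were lost when any single array of E11.5 PGC, Day6 or EG was left out, with changes of 3.48 to 4.10 at Day6 (adjusted p up to 0.21) and 3.29 to 3.91 in EG (up to 0.229). They were also lost with quantile normalization (3.77, adjusted p = 0.0586, at Day6, and 3.72, 0.055, in EG).

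Slc7a4, which resembles the cationic carriers in sequence and whose own substrate is not established, was dim throughout. It read 5.74 and 5.39 at Day6, and 12.6 and 17.9 in EG, against 2.30 and 2.47 in E11.5 PGC, which is near the floor. It rose by 2.66 ± 0.29 in EG (adjusted p = 0.00375, 6.31-fold), a call kept in all 8 fits that left out an array. The rise of 1.22 ± 0.29 at Day6 (adjusted p = 0.045) was lost in all 8 of them (adjusted p = 0.0585 to 0.191), with a pseudocount (0.84, adjusted p = 0.0731), with a trended robust prior (0.0545) and with only the 4 arrays compared (0.134). Slc7a1, the widespread arginine carrier, had no value in E11.5 PGC and lay between 1.78 and 2.83 elsewhere, and Slc7a2 did not exceed 2.39.

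Slc3a2, the heavy chain also known as CD98 or 4F2hc, lay far above the floor value in all groups. It measured 837 and 774 on the E11.5 PGC arrays, 753 and 789 on the Day3 arrays, 556 and 557 on the Day6 arrays, and 849 and 806 on the EG arrays. The Day6 arrays were the lowest, but the change of -0.53 was not called (adjusted p = 0.241). Slc7a5, its partner for leucine and other large neutral amino acids (LAT1), read 365 and 209 on the E11.5 PGC arrays, 267 and 145 on the Day3 arrays, 289 and 139 on the Day6 arrays, and 350 and 344 on the EG arrays. Its groups overlapped, and it was called in no comparison by either model. In E11.5 PGC, Day3 and Day6 its replicate in series A was the brighter.

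Another partner of Slc3a2 fell at Day6 and was higher again in EG. Slc7a7, the light chain y+LAT1 that exports arginine and lysine in exchange for neutral amino acids and sodium, had intensities of 22.7 and 16.5 at Day6, against 170 and 176 in E11.5 PGC. Day3 lay between, at 50.0 and 47.7, and the EG values were 271 and 136. It fell by 3.16 ± 0.38 on the log2 scale at Day6 (adjusted p = 0.00496, 8.92-fold lower), a call kept in all 8 fits that left out an array. The Day3 change of -1.82 ± 0.38 missed the threshold (adjusted p = 0.0658), and was called with the block (0.0301), a pseudocount (0.0418) or a trended robust prior (0.0446). In EG against E11.5 PGC the change was 0.15 ± 0.38 (adjusted p = 0.842), with overlapping arrays. Macrophages also express Slc7a7, and the 2 measured blood markers summed to 13.9 and 15.4 at Day6, against 48.1 and 40.4 in E11.5 PGC, and their part in the fall was not tested.

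EG against Day6 was the comparison in which Slc7a7 stood out. It was the only 1 of 46 members called there (2.17%), beside 0.169% of all probes (0.139% higher, 0.0298% lower), and again the only 1 with the block, beside 1.96% (1.25% higher, 0.716% lower). Its level was 271 and 136 in EG, against 22.7 and 16.5 at Day6, a rise of 3.31 ± 0.38 (adjusted p = 0.0369, 9.90-fold). This call was lost whenever any 1 of the 8 arrays was left out, with changes of 2.81 to 3.81. It was also lost with only the 4 arrays of EG and Day6 in the fit (0.186). In each of these fits fewer of all probes were called as well. The 2 measured blood markers summed to 15.3 and 13.4 in EG, against 13.9 and 15.4 at Day6, and their part in the rise was not tested.

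The remaining light chains of Slc3a2 had no call in the fit on all 8 arrays without the block. Slc7a6, y+LAT2, a relative of Slc7a7 with like exchange, read 20.5 and 24.3 in EG, against 61.7 and 72.3 in E11.5 PGC. These arrays did not overlap, and the change of -1.58 ± 0.41 missed the threshold (adjusted p = 0.0527) but was called with the block (-1.83 ± 0.35, adjusted p = 0.014). It was also called without the block with a pseudocount (0.0389), without the dimmest probes (0.0433), with a trended robust prior (0.0401), with only the 4 arrays compared (0.0151), and without any 1 array of Day3 (0.0358) or Day6 (0.0452). Slc7a6os, the gene on the opposite strand beside it, had 153 and 177 in EG, against 190 and 160 in E11.5 PGC, with no call. Slc7a10, Asc-1, a carrier of small neutral amino acids and D-serine, had 15.4 and 15.6 in E11.5 PGC and then 2.53 and 12.4 at Day3, then 4.76 and 17.5 at Day6, and in EG 9.43 and 9.28. Slc7a8, LAT2, and Slc7a11, the cystine-glutamate exchanger xCT, did not exceed 3.49 and 6.81 on any array.

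Slc7a9, the light chain of the kidney cystine carrier, fell in EG, and its heavy chain had no call. Its intensity was 5.96 and 2.01 in EG, and 3.99 and 9.75 at Day6, against 37.5 and 38.1 in E11.5 PGC. These later arrays all lay below the germ cell arrays, whereas Day3 straddled them at 59.0 and 19.6. It fell by 3.45 ± 0.72 in EG (adjusted p = 0.0271, 10.9-fold lower), and the Day6 change of -2.60 ± 0.72 missed the threshold (adjusted p = 0.073), with calls under the block (0.0473) or a pseudocount (-2.30, 0.0468). The EG call was lost without any single array of E11.5 PGC or EG (changes of -4.23 to -2.67, adjusted p up to 0.182). Slc3a1, the heavy chain rBAT that pairs with Slc7a9, lay between 4.46 and 9.46 on all 8 arrays with no call, and Slc7a13, its other partner, did not exceed 3.40.

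**Figure D3:**
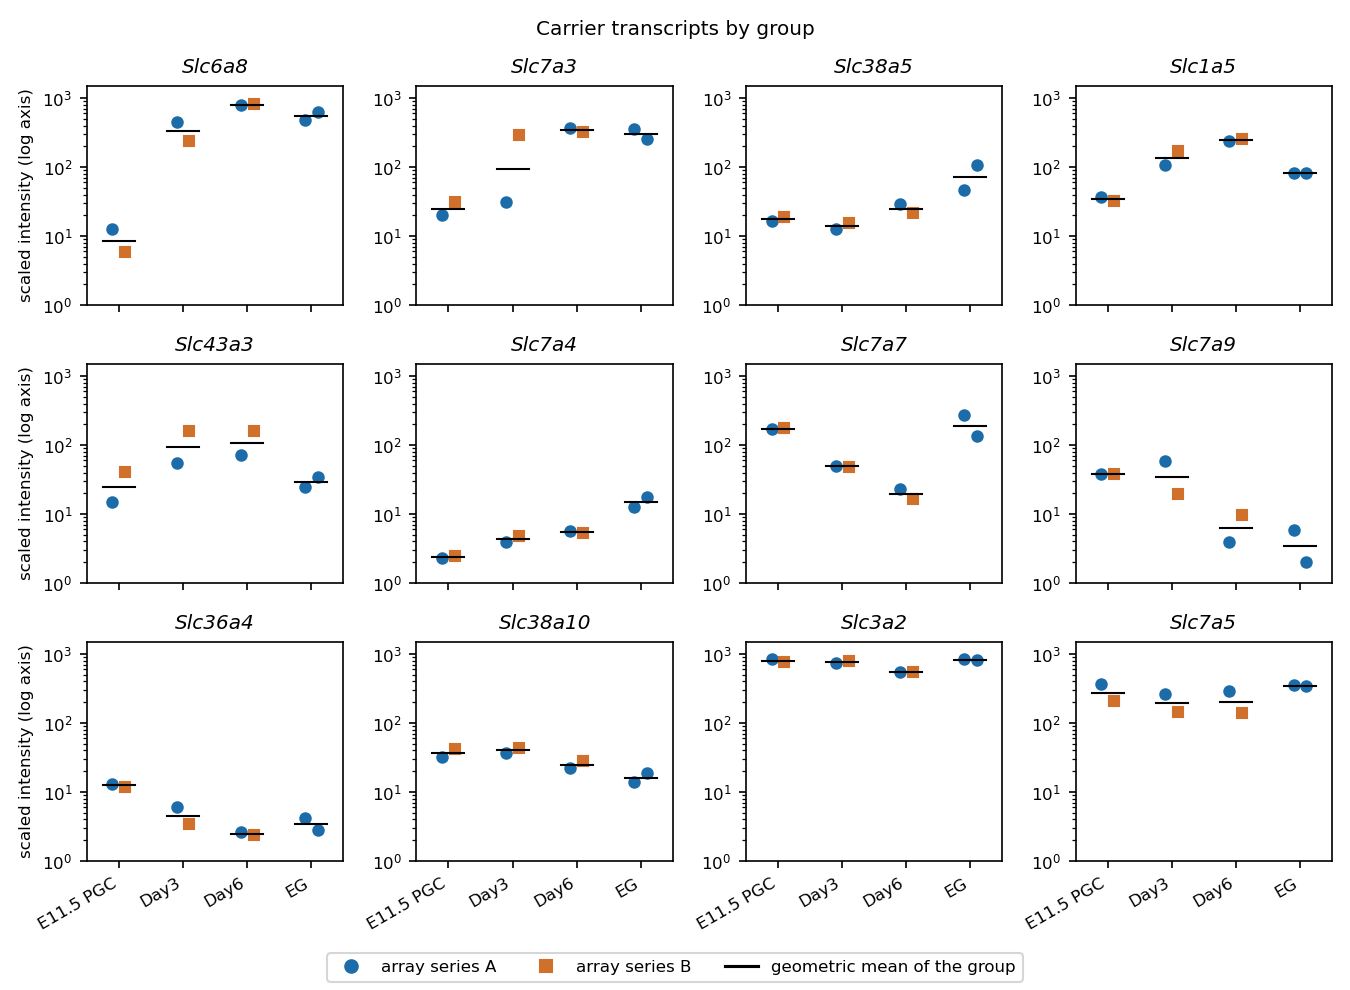
Intensity (log axis) of 12 carriers on each array of E11.5 PGC, Day3, Day6 and EG, with blue circles for series A, orange squares for series B and a bar at the geometric mean. The 6 later arrays of Slc6a8 (239 to 818) lie above both E11.5 PGC arrays, Slc7a7 dips to 22.7 and 16.5 at Day6, and Slc43a3 is higher in series B than in series A in the 3 groups that hold both.

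Slc1a5, the ASCT2 exchanger through which many growing cells take up glutamine, rose in all 3 comparisons. It read 109 and 173 at Day3, then 242 and 255 at Day6, and in EG 81.9 and 82.4, against 37.4 and 32.2 in E11.5 PGC. Every later array exceeded the germ cell arrays, and the Day6 arrays were the highest. The rises were 1.98 ± 0.30 at Day3 (adjusted p = 0.0271, 3.95-fold), 2.84 ± 0.30 at Day6 (adjusted p = 0.00363, 7.16-fold) and 1.24 ± 0.30 in EG (adjusted p = 0.043, 2.37-fold). Only the Day6 call was kept in all 8 fits that left out an array. The Day3 call was lost without any 1 array of E11.5 PGC, Day3 or EG (changes 1.65 to 2.32, adjusted p up to 0.188) and with only the 4 arrays compared (0.114), and the EG call without any 1 array of E11.5 PGC or EG (1.14 to 1.35, up to 0.228). The lower EG level against Day6 was not called (-1.60 ± 0.30, adjusted p = 0.103, and 0.0542 with the block).

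The glutamate carriers of the same family had no call in the fit on all 8 arrays without the block. Slc1a1, EAAT3, read 7.01 and 18.1 at Day6, against 4.01 and 2.22 in E11.5 PGC, a change of 1.92 ± 0.50 (adjusted p = 0.063, and 0.0327 with the block). Within series A it was 0.81, and within series B 3.03, and it was also called without replicate 1 of Day6 (2.60, 0.0315). Slc1a3, GLAST, had 4.26 and 4.03 at Day3, and 2.70 and 5.55 at Day6, against 9.23 and 24.1 in E11.5 PGC. Both later groups lay below the germ cell arrays, by -1.85 ± 0.53 (adjusted p = 0.158, and 0.0346 with the block) and -1.95 ± 0.53 (0.0689, and 0.0137 with the block). Slc1a4, ASCT1, a carrier of alanine, serine and cysteine, read 18.1 and 86.2 at Day3, against 11.4 and 16.3 in E11.5 PGC, with no call in either model. Slc1a6 and Slc1a7, better known from neurons and retina, lay between 4.91 and 18.3 on all arrays with no call, and Slc1a2 did not exceed 1.78.

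Of the 9 sodium-coupled neutral amino acid carriers, 2 were called without the block, both in EG against E11.5 PGC. In that comparison 11.2% of all probes were called. Slc38a4, a carrier of neutral and cationic amino acids, spanned 137 to 333 over the 8 arrays, with no call. Slc38a2, the SNAT2 carrier that cells induce when amino acids are short, spanned 19.7 to 50.1, also with no call. Slc38a9, a lysosomal carrier that reports arginine to mTORC1, read 41.1 and 51.3 at Day6, and 90.7 and 93.7 in EG, against 91.9 and 67.7 in E11.5 PGC. Its Day6 arrays were the lowest of these, with no call in either model. Slc38a1, SNAT1, had 97.0 and 115 at Day6, against 174 and 225 in E11.5 PGC, and the change of -0.90 ± 0.29 was called with the block only (adjusted p = 0.023, against 0.112). In EG it read 192 and 155, overlapping the germ cell values.

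The Slc38 calls without the block were a rise and a fall in EG. Slc38a5, the SN2 glutamine carrier, had 46.7 and 108 in EG, against 16.7 and 18.8 in E11.5 PGC. Its Day3 (12.6 and 15.4) and Day6 (28.9 and 21.8) arrays lay below both EG arrays. It rose by 2.00 ± 0.42 in EG (adjusted p = 0.0276), and the call was lost without either E11.5 PGC array or without replicate 2 of EG (changes 1.40 to 2.60, adjusted p 0.122 to 0.158). Slc38a10, a member whose transport role is less studied, read 13.8 and 18.7 in EG, against 32.4 and 42.2 in E11.5 PGC. It fell by 1.20 ± 0.31 on the log2 scale (adjusted p = 0.049), a call lost without any 1 array of E11.5 PGC, Day3 or EG (-1.42 to -0.98, adjusted p up to 0.282).

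The Slc43 carriers were called with the block only. Slc43a3, described as a carrier of purine nucleobases, read 55.5 and 161 at Day3, and 72.3 and 159 at Day6, against 14.9 and 41.2 in E11.5 PGC. The series B array was the brighter in each of these groups, and the changes were alike within series A and B, at 1.90 and 1.96 for Day3 and 2.28 and 1.95 for Day6. Without the block they were not called (1.93 ± 0.69, adjusted p = 0.256, and 2.11 ± 0.69, 0.115), and with it they were (0.00892 and 0.00267). In EG, at 24.8 and 34.5, the change of 0.24 ± 0.69 (adjusted p = 0.865) became 0.93 with the block (0.0451), and -0.50 without replicate 1 of E11.5 PGC. Slc43a1, the LAT3 carrier of large neutral amino acids, read 64.8 and 97.7 at Day3, against 28.3 and 51.9 in E11.5 PGC. Its change of 1.05 ± 0.49 was called with the block only (adjusted p = 0.0399, against 0.398), and Slc43a2, LAT4, did not exceed 3.02.

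Slc36a4, a carrier of proline and tryptophan, was the only Slc36 gene above the floor value on both E11.5 PGC arrays. It read 2.60 and 2.35 at Day6, and 4.23 and 2.79 in EG, both near the floor, against 13.2 and 11.8 in E11.5 PGC. Day3, at 5.99 and 3.38, also lay below the germ cell arrays. It fell by 2.33 ± 0.37 at Day6 (adjusted p = 0.0116, 5.04-fold lower) and by 1.86 ± 0.37 in EG (adjusted p = 0.0226, 3.63-fold lower), and at Day3 the change of -1.47 ± 0.37 was called with the block only (0.0329, against 0.11). The Day6 call was lost without either E11.5 PGC array (changes -2.42 to -2.25 over the 8 fits, adjusted p 0.0689 and 0.0775), and the EG call without any 1 array of E11.5 PGC or EG (-2.16 to -1.56, adjusted p up to 0.174). Slc36a3 lay between 3.08 and 11.1 and was called higher in EG with only the 4 arrays compared (1.22, adjusted p = 0.0494), and Slc36a1 and Slc36a2 did not exceed 2.33 and 6.48.

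**Figure D4:**
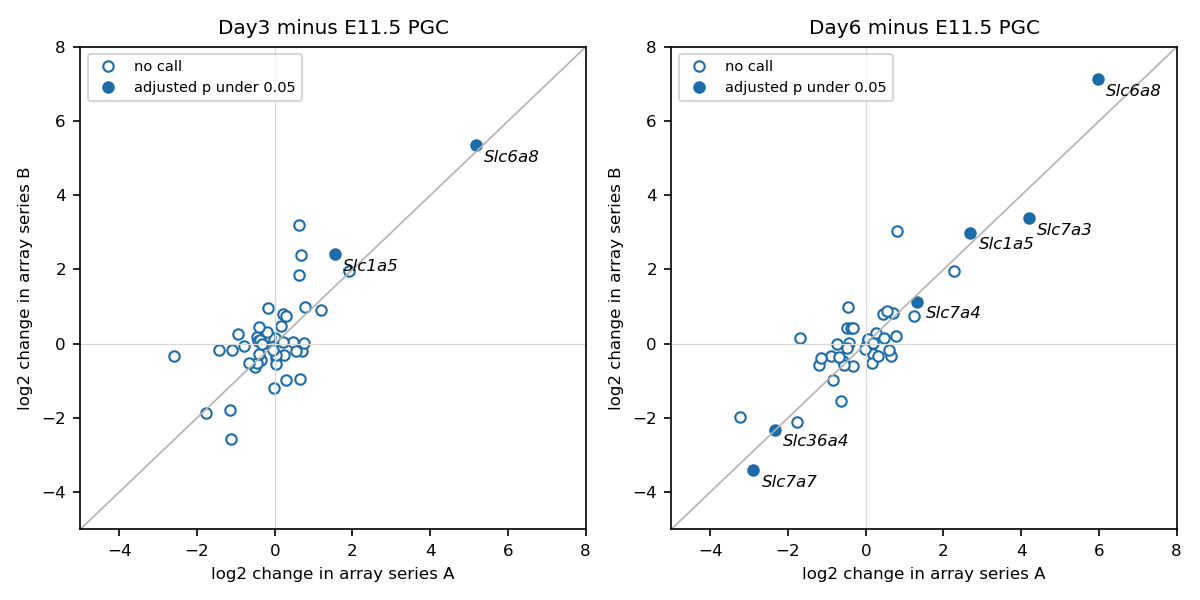
Log2 change against E11.5 PGC within series A (horizontal) and within series B (vertical) for each carrier measured, at Day3 and at Day6, with called carriers labelled. Slc6a8 lies at 5.17 and 5.36 for Day3, close to the line of equal change, and Slc7a3 at 0.62 and 3.21, far from it.

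Day6 against Day3 gave no call. Of 47 members 0 were called in either model, while 7 had an unadjusted p under 0.05. Over all probes 0.0% were called without the block, with 1783 at an unadjusted p under 0.05, and 1.8% with it (0.974% higher, 0.829% lower). The median change of the tested carriers was -0.02 at Day6 against Day3 and 0.00 in EG against Day6, beside -0.05 and -0.01 over all probes.

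A shared feature that the choice of members did not use was the chromosome, looked up in RefSeq for GRCm38.p6 after the called members had been seen. Of the 57 carriers 4 are X-linked: Slc6a8, Slc7a3, Slc38a5 and Slc6a14, the last near the floor on the arrays that measured it. In EG against E11.5 PGC, 3 of these 4 were called higher, as were 2 of the 41 autosomal carriers tested. Over all named genes in that comparison, 60 of 504 X-linked genes (11.9%) were called higher, beside 798 of 14243 autosomal genes (5.6%). At Day6 the counts were 2 of 3 X-linked and 2 of 40 autosomal carriers, beside 11.9% of all X-linked and 4.61% of all autosomal genes, and at Day3 they were 1 of 4 and 1 of 44, beside 2.88% and 1.55%. These shares are descriptions with no test.

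Other amino acid carriers, outside these families, had few calls in the fit without the block. Of 18 tested, among them the mitochondrial glutamate and aspartate carriers and the lysosomal cystine carrier, 0 were called at Day3 and 0 at Day6 by limma (2.08% and 8.61% of all probes). With the block 1 was higher at Day3, and 1 was higher and 3 were lower at Day6 (22.2%, beside 23.8% of all probes). In EG only Slc15a4, a lysosomal carrier of histidine and small peptides, fell, with a geometric mean of 31.0 in EG, against 113 in E11.5 PGC (-1.87 ± 0.40, adjusted p = 0.0283). This was 5.56% of the 18, beside 11.2% of all probes. The calls of this list were read only without and with the block, with no array left out. The median changes of these 18 were -0.08 at Day3, -0.06 at Day6 and 0.01 in EG.

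Genes that sense amino acids for mTORC1 had calls in both directions. Their list was chosen with earlier results of these data known. Its calls were read only without and with the block, with no array left out. Of 25 tested, 0 were called at Day3 (with the block 1 higher and 1 lower), 2 rose and 2 fell at Day6 (with the block 4 and 7), and 1 rose and 4 fell in EG (with the block 1 and 6), with medians of -0.20, -0.42 and -0.28. The shares called at Day6 and in EG were 16% and 20%, beside 8.61% and 11.2% of all probes, and with the block 44% and 28%, beside 23.8% and 23.6%, and no test compares them. Lamtor3, a subunit of the Ragulator scaffold on lysosomes, had 303 and 225 at Day6, and 282 and 246 in EG, against 114 and 98.9 in E11.5 PGC. It rose by 1.30 ± 0.28 at Day6 (adjusted p = 0.0334) and by 1.31 ± 0.28 in EG (0.028). Mtor, the kinase itself, had 124 and 143 at Day6, and 121 and 145 in EG, against 306 and 353 in E11.5 PGC, and fell by 1.30 ± 0.26 and 1.31 ± 0.26 on the log2 scale (adjusted p = 0.0269 and 0.0236). Rragd, a Rag GTPase, rose at Day6 (1.83 ± 0.42, adjusted p = 0.0405), Tsc1, an inhibitor of the pathway, fell at Day6 and in EG (-1.32 ± 0.30, 0.0382, and -1.33, 0.0321), and Flcn and Sesn3 fell in EG (-1.63 ± 0.33, 0.0252, and -1.55, 0.0219).

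The amino acid response runs through the transcription factor ATF4 when amino acids are short. Its listed genes, among them Atf4 and genes acting before it such as Eif2ak4, had calls in the higher direction only. This list, too, was chosen with earlier results of these data known. Its calls were read only without and with the block, with no array left out. Of 15 tested, 1 was called at Day3, 2 at Day6 and 2 in EG (with the block 4, 6 and 3), with median changes of 0.65, 0.80 and 1.07. The shares called higher were 6.67%, 13.3% and 13.3%, beside 1.33%, 4.34% and 5.57% of all probes, and with the block 26.7%, 40% and 20%, beside 4.34%, 9.5% and 9.24%, and no test compares them. Nupr1, a small stress-induced nuclear protein, had 36.7 and 111 at Day3, then 115 and 31.1 at Day6, and in EG 460 and 330, against 4.27 and 1.61 in E11.5 PGC, with rises of 4.61 ± 0.80 (adjusted p = 0.0394), 4.51 ± 0.80 (0.0171) and 7.22 ± 0.80 (0.00391). Asns, asparagine synthetase, had 4700 and 4210 at Day6, against 1960 and 1010 in E11.5 PGC (1.66 ± 0.37, adjusted p = 0.037). Chac1, an enzyme that breaks down glutathione, had 572 and 255 in EG, against 15.9 and 6.23 in E11.5 PGC (5.26 ± 0.96, adjusted p = 0.0181). Atf4 itself had 1660 and 1560 in EG, against 1110 and 701 in E11.5 PGC, with no call in either model. Of 9 carriers reported elsewhere as ATF4 targets 8 were tested, and those called were Slc1a5 at Day3, and Slc1a5 and Slc7a3 at Day6 and in EG. The others (Slc1a4, Slc3a2, Slc6a9, Slc7a5, Slc7a11 and Slc38a2) had no call there in either model, and the list's medians were 0.27, 0.06 and 0.26. The shares of these 8 called higher were 12.5%, 25% and 25%, beside 1.33%, 4.34% and 5.57% of all probes. With the block they were the same, beside 4.34%, 9.5% and 9.24%, and no test compares them. These shares hold only the Slc1a5 and Slc7a3 calls given above, in a list chosen with earlier results known.

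The promoters of the carriers were searched for the element through which ATF4 acts, because these targets lie among the members. RefSeq windows (GRCm38.p6) of 250 bases before to 50 after a gene's start were at hand for 40 carriers, 61 windows in all. None was at hand for Slc6a8, Slc7a3, Slc1a5 and Slc7a4, so the promoters of these called carriers were not searched. The motif TGATGNAAT, read on both strands, stood in 317 of all 32851 windows (0.965%) and in 0 of the 61 carrier windows. Its core TGATGNAA, which is contained in the longer form and was added afterwards, stood in 1304 of all windows (3.97%). Among them were 4 of the 61 carrier windows, of 3 carriers, Slc7a11, Slc1a4 and Slc7a7. The Slc7a7 windows overlap and share the match TGATGCAA, which is thus counted in each, and only the upstream window is shown. A window is shown for each of these 3 carriers, in the direction of transcription and with the core, on either strand, in capitals. All 3 lie on the minus strand, Slc7a11 at chr3:50443564-50443863, Slc1a4 at chr11:20332664-20332963 and Slc7a7 at chr14:54417895-54418194.
Slc7a11: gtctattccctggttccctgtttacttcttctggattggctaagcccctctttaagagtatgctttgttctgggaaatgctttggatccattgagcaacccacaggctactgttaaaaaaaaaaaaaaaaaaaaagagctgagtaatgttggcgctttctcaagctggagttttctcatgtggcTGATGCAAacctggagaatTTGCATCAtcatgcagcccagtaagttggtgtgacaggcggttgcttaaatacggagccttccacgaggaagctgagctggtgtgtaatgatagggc
Slc1a4: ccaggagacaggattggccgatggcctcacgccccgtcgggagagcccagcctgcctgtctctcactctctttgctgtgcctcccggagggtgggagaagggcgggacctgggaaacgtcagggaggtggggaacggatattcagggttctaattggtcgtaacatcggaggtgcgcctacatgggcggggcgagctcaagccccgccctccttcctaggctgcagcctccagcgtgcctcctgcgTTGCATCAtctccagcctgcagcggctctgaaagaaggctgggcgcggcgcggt
Slc7a7: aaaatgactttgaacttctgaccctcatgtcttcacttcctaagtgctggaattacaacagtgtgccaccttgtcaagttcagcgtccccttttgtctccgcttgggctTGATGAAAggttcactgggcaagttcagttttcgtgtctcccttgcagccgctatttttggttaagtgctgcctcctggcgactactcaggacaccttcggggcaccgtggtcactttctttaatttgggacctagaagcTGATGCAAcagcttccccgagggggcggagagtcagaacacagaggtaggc
A match of letters is a description and not a binding site. Of these 3 genes, Slc7a11 and Slc1a4 had no call, and Slc7a7 fell at Day6, as given above.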

How the data were processed

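The deposited values are linear spot intensity of one-colour arrays, which the authors scaled. RNA was purified on columns, amplified as amino allyl aRNA and coupled to dye, per the labels' protocols, while how background was handled, how values were scaled and why cells are blank is not given in the sources used here. It held 23473 probes, 19524 with a value on all 8 arrays, and array medians of 19.99 to 20.01, so the values were converted to log2 with no further normalization and missing values stayed missing. Each array measured between 21126 and 22404 probes, and the small number of arrays limits the precision. GEO's platform annotation gave 16631 probes 1 symbol and 6842 none, and 3947 symbols, 6 of them of members, were updated through synonyms in the RefSeq mouse gene table (GRCm38.p6).

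Comparisons used limma 3.58.1 in R 4.3.3, which fitted every probe to the 4 groups of 8 arrays together and gave moderated, two-sided tests. Probes complete in the 2 groups compared were tested, and p-values were adjusted by Benjamini-Hochberg over them. The fit was tested on simulated data. Deviations of replicate 1 from the group mean correlated over 19524 probes at r = 0.62 for Day3 with E11.5 PGC, 0.547 for Day6 with E11.5 PGC and 0.694 for Day6 with Day3. In these 3 groups the replicate number is the array series of the labels' array names, so the pairing was used as a block. For EG, all of series A, r was between -0.025 and 0.061. Alternatives were this block, quantile normalization, a pseudocount of 1.614 (the 5th percentile of all intensities), removal of the dimmest 25% of probes, a trended robust prior, only the 4 arrays compared, and each array left out. The genes named are the members called in any comparison in either model, the 2 brightest of each family, the light chains of the Slc3 proteins, and called genes of the lists. Brightness served only this choice. Slc1a2, Slc1a6, Slc1a7, Slc6a5, Slc6a9, Slc6a14, Slc6a15, Slc7a1, Slc7a2, Slc36a1, Slc36a2, Slc38a2, Slc38a9, Slc43a2 and Atf4 were added after their values were seen. Members, lists and motif were chosen with earlier results of these data known.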

Additional observations from a re-analysis of the deposited data

How the results depend on the processing

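With the array series as a replicate block, members called went to 7 at Day3 (2 without) and 12 at Day6 (6 without), and stayed within 1.5 times in EG (11, against 8), at 0 for Day6 against Day3 and at 1 for EG against Day6. Over all probes the block gave 1725 calls in place of 431 at Day3, 4790 in place of 1734 at Day6, 4905 in place of 2321 in EG, 361 in place of 0 for Day6 against Day3 and 395 in place of 34 for EG against Day6. With only the 4 arrays compared, 1 member was called at Day3 and 0 for EG against Day6, but 11 in EG (3804 probes in place of 2321), and the cause was not tested. Leaving out 1 array at a time leaves its group with a single array. It lowered the number of members called at Day3, at Day6 and in EG in some of these fits, and the call for EG against Day6 was lost every time. The lowest counts came without replicate 2 of E11.5 PGC (0 at Day3, 3 at Day6, 2 in EG) and without replicate 2 of EG (2 in EG). With the block as well, a setting added after the data were seen, the ranges were 1 to 7, 7 to 11, 4 to 12, 0 to 0 and 0 to 1, with 5 at Day3 and 10 at Day6 without either EG array, and 5 in EG without replicate 1 of E11.5 PGC. Slc43a3 in EG against E11.5 PGC turned to -0.50 without replicate 1 of E11.5 PGC (0.24 with all arrays, 0.98 without replicate 2), and the cause was not tested. Of the values of single members under the alternatives, 385 kept their direction and side of the threshold or stayed within the spread between replicates, 65 lost a call, 26 gained one, 6 moved by more than the spread and 1 reversed. Taking any probe of a gene altered nothing, since each member has 1 probe. Carriers near the floor (Slc7a4, Slc36a4, Slc6a17) have changes that depend on how low intensities are treated.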
